A study of Mus musculus with 16 samples.

Results

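The polysome RNA of Perk knockout mouse liver was compared between livers perfused with and without tBuHQ, an inhibitor of calcium uptake into the endoplasmic reticulum (ER). The comparison rests on 4 of the 16 arrays in the series, 2 with tBuHQ and 2 untreated, chosen by the treatment, genotype and fraction in the sample titles. Of 45101 probe sets, 34958 carried a single gene symbol, and 12154 genes, each read by its brightest probe set, passed a filter on the mean signal over all 16 arrays and were tested. The series crossed 2 genotypes, 2 treatments and 2 RNA fractions in 8 groups of 2 Affymetrix arrays. The knockout mice are labelled Alb/Cre Perk-/- and the controls are their wild-type littermates, all aged 3 to 6 months. Cre under the albumin promoter acts in hepatocytes, so stellate, endothelial and immune cells retain the gene. Every liver, treated or not, was perfused once through with buffer at 0.1 mM CaCl2, and polysomes were collected from sucrose gradients of 20% to 47%. Per the labels, RNA of 2 perfused livers was pooled for each condition and 12 µg was labelled. The labels name tBuHQ as 2,5-di-tert-butylhydroquinone in the protocol and also as the 2,4 form in the text of the series. By their titles the arrays of each group are biological replicates. Whether those arrays hold separate pools is not stated. The p-values and standard errors measure the spread between arrays of a group, pooled over all 8 groups, and that spread may be technical.

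PERK, encoded by Eif2ak3, is an ER kinase that senses unfolded proteins and phosphorylates the translation factor eIF2 on its alpha subunit. That phosphorylation slows initiation on most mRNAs and favours a few with upstream reading frames, among them the mRNA of the transcription factor ATF4. Emptying the ER of calcium disturbs calcium-dependent chaperones and sets off this pathway together with its parallel arms, ATF6 and IRE1 with XBP1. The signal of an mRNA in the polysome fraction depends both on how much of that mRNA the tissue holds and on the share of it carried by ribosomes. In RNA from whole liver, fewer cells of a type and less RNA per cell cannot be told apart.

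A conflict of labels bears on every direction that follows. A second deposited table of the same arrays, with z scores made by the authors, names its columns by treatment. Each of its 4 knockout polysome columns matched by value an array titled with the other treatment, with r = 0.999996 over 18697 probe sets and a largest residual of at most 0.00361 on the log10 scale. With the array of its own name, a column correlated at 0.932 to 0.959. The z ratio in the authors' deposited table, columns named without tBuHQ minus columns named with it, correlated at 0.95 across 9931 genes with the tBuHQ minus untreated differences made from the titles. The titles were followed throughout. Under the column names of the z score table, every tBuHQ minus untreated sign in knockout polysome RNA would turn, medians of lists included, and each difference from wild-type or unfractionated RNA would also change in size. The turned values of the differences between genotypes, from a fit added after the data were seen, are given beside them. Pancreatic transcripts stood high on the array titled untreated 1 in both knockout fractions, with a summed signal of 4104 in polysome and 3707 in unfractionated RNA. They stood at 232 and below on the other unfractionated knockout arrays. In wild-type liver they stood high on the array titled tBuHQ 1 in both fractions, at 3235 in polysome and 4680 in unfractionated RNA.

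The genotype check used the signal of Eif2ak3, the deleted gene. On the knockout polysome arrays it read 26.3 and 34 without tBuHQ and 33.5 and 34.5 with it. On the wild-type polysome arrays it read 46.1 and 107 without tBuHQ and 216 and 111 with it. All 4 knockout values lay below all 4 wild-type values, 2.55-fold lower in the fit (log2 difference -1.35 ± 0.245 SE, limma adjusted p = 0.0825), which did not pass the threshold of 0.05. It passed without the first wild-type tBuHQ array (adjusted p = 0.0285) or without the second (0.0192). Signals of absent bacterial spike-ins reached 12.8 on these 4 arrays, so the knockout values stood above that level. The sources used here do not say whether the probe set lies within the deleted part.

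The 4 arrays were of even quality, with Gapdh 3'/5' signal ratios of 0.754 to 0.859, and the log2 signals of the untreated arrays correlated at 0.975, those of the tBuHQ arrays at 0.969 and those of arrays of different treatment at 0.961 to 0.978. Both correlations within a treatment lay inside the range between treatments. All 13 hepatocyte markers were above the spike-in level, with a summed signal of 120592 and 125515 on the untreated arrays and 111203 and 134338 on the tBuHQ arrays. Pancreatic acinar transcripts stood apart on 1 array. The summed signal of 12 such markers was 4104 on the first untreated array and 251 on the second, against 215 and 199 with tBuHQ. Ctrb1, the precursor of chymotrypsin, read 920 and 22.3 without tBuHQ and 3.50 and 3.30 with it. Among wild-type polysome arrays the first tBuHQ array had a pancreatic sum of 3235, and the second tBuHQ array had a Gapdh 3'/5' ratio of 5.60. The stellate cell markers summed to 2499 and 2480 without and 4277 and 2658 with tBuHQ, the sinusoidal endothelial markers to 2088 and 2342 without and 2790 and 2372 with it, and the macrophage markers to 2807 and 3181 without and 3143 and 2675 with it. The lymphocyte sum was 173 and 1363 without and 601 and 1466 with tBuHQ, of which the immunoglobulin chain Ighm gave 6.58 and 1204 without and 446 and 1319 with it. Of 17 lymphocyte markers on the array 9 stayed at or under the spike-in level, among them Cd3d, Cd79a and Ms4a1. The part of these cell types in the results was not tested.

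No gene passed the test of the tBuHQ effect in knockout polysome RNA (limma, Benjamini-Hochberg over 12154 genes, 0% called at an adjusted p under 0.05). The smallest adjusted p was 0.232. At an unadjusted p under 0.05 there were 704 genes, where 608 would be expected without any effect. Of these, 546 read higher with tBuHQ (4.49% of the genes tested) and 158 lower (1.3%). Both tBuHQ arrays lay above both untreated arrays for 2476 genes (20.4%) and below them for 2123 (17.5%), and these shares are the background for each count of list members that follows. The median difference over all genes was -0.01 on the log2 scale. With 2 arrays a group, the exact two-sided permutation test of a single gene cannot go below p = 0.333. The differences are therefore values, with their standard errors from the fit, and not calls.

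Among genes that read higher, the 10 with the smallest unadjusted p, clone and predicted gene names left out, encode mostly secreted plasma proteins, enzymes and transporters. Itih1 is a heavy chain of the inter-alpha-trypsin inhibitor, a plasma protein that binds hyaluronan. Its signal was 601 and 618 on the untreated arrays and 1357 and 1683 on the tBuHQ arrays, a log2 difference of 1.29 ± 0.24 (SE, limma adjusted p = 0.232). The groups did not overlap, and the untreated arrays were close to each other. Afm, afamin, a vitamin E-binding carrier related to albumin, read 1251 and 1163 without tBuHQ and 2196 and 3309 with it, a difference of 1.15 ± 0.208. Here too both tBuHQ arrays lay above both untreated arrays, and the tBuHQ arrays were farther apart than the untreated ones. The promoters of these 2 genes are printed because plasma protein genes lead the higher genes and many of their promoters hold a core motif of the liver factor HNF1. The 2 were picked after their values were seen. Each runs from 250 bases before to 50 bases after the transcription start (RefSeq, GRCm38.p6, 5′ to 3′ on the gene's strand). Itih1 lies at chr14:30943240-30943539 on the minus strand and Afm at chr5:90518699-90518998 on the plus strand. Capitals mark matches to GTTAAT on either strand.
Itih1: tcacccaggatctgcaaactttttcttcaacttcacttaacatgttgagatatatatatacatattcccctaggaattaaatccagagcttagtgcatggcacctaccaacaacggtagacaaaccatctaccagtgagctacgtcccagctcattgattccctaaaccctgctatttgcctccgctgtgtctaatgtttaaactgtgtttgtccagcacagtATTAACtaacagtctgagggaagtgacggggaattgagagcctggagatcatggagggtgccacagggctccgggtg
Afm: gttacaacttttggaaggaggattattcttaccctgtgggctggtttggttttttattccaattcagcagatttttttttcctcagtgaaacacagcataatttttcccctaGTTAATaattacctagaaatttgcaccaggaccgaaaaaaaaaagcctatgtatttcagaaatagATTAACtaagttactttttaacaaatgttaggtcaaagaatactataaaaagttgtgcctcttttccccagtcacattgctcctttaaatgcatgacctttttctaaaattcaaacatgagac
The match in Itih1 starts at base -27 from the transcription start, and those in Afm start at -138 and -73. Of 39 plasma protein genes with a RefSeq promoter, 13 held GTTAAT (33.3%), against 425 of the 9839 promoters of all tested genes (4.32%). Within the plasma protein genes the median difference was 0.43 in the 13 genes with the match and 0.45 in the 26 without it. The part of HNF1 in the differences was not tested. A match is a description of letters and not a bound site.

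The other 8 genes of this group had signals of the same kind. Cyp2a12, a liver cytochrome P450, read 1605 and 2009 without tBuHQ and 3721 and 4534 with it (1.19 ± 0.21). Mug1, the protease inhibitor murinoglobulin, read 2737 and 3548 without and 5950 and 6643 with tBuHQ (1.01 ± 0.192). Itih2, the partner heavy chain of Itih1, read 1766 and 1857 without and 3022 and 4025 with it (0.94 ± 0.188). In each of the 3 genes the lowest tBuHQ array was well above the highest untreated array. Enpep, the membrane aminopeptidase that cleaves angiotensin II, read 272 and 301 without and 696 and 743 with tBuHQ (1.28 ± 0.251). Agmo, which cleaves ether lipids, read 340 and 395 without and 839 and 1077 with it (1.34 ± 0.263). The spread within each treatment was small beside the gap between treatments for both genes. Aox1, aldehyde oxidase, stood at 644 and 710 against 1381 and 1442 (1.04 ± 0.213), and Slc22a30, an organic anion transporter of the Slc22 family, at 1014 and 903 against 2221 and 2142 (1.18 ± 0.24). Pzp, an abundant plasma protease inhibitor of the alpha-2-macroglobulin family, stood at 5178 and 6686 against 9438 and 12384 (0.88 ± 0.18). Each of the 8 had an adjusted p of 0.232.

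**Figure D1:**
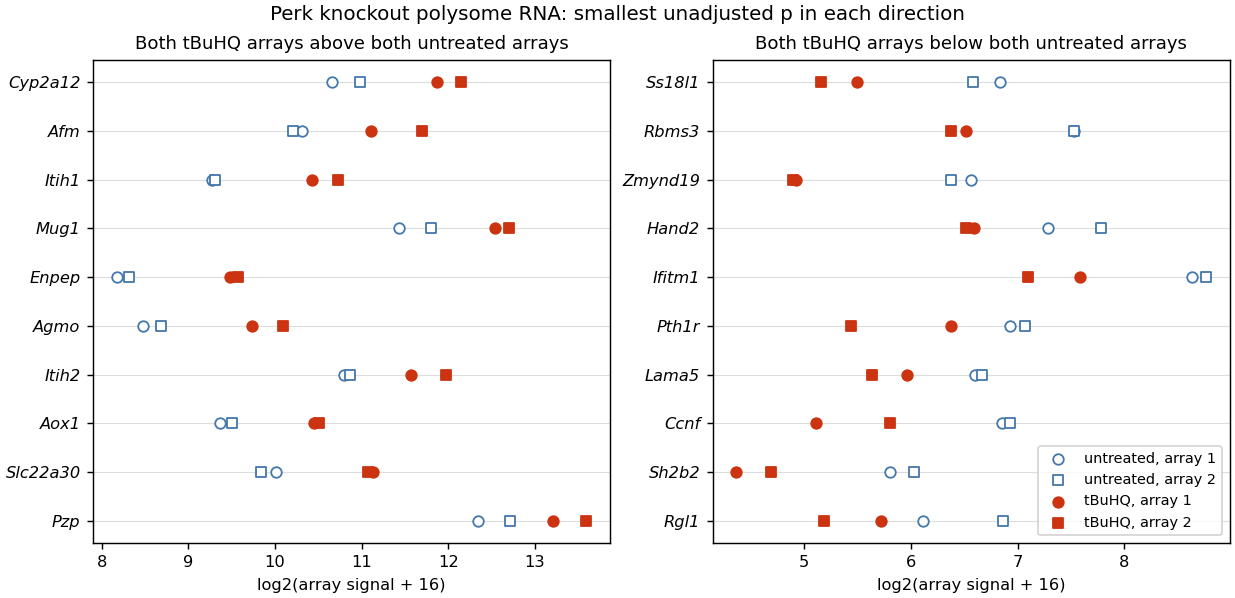
Signals on the 4 knockout polysome arrays, as log2(array signal + 16), for the 10 genes with the smallest unadjusted p in each direction. Open blue symbols are untreated arrays, filled red symbols tBuHQ arrays, circles array 1 and squares array 2. The 2 treatments do not overlap for any of these genes, which is part of how they were chosen. Clone and predicted gene names were left out. None passed the test.

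For each of the genes named above as higher with tBuHQ, both knockout polysome arrays titled untreated lay below every other polysome array. Afm read 1251 and 1163 on them, against 2405 and 2459 on untreated wild-type polysome arrays. Aox1 read 644 and 710 on them, against 1739 and 1250 on untreated wild-type polysome arrays. The cause of these low values was not tested. Itih1 read 1340 and 1114 on untreated wild-type polysome arrays and 1560 and 1738 on wild-type tBuHQ arrays, so that the knockout tBuHQ values of 1357 and 1683 lay within the wild-type range. Cyp2a12 read 3304 and 3613 without and 4426 and 3636 with tBuHQ in wild-type polysomes, and Enpep read 597 and 682 without and 733 and 787 with it. For Cyp2a12 the difference between genotypes in the tBuHQ effect was 0.97 ± 0.297 and for Enpep 1.04 ± 0.355, each with a limma adjusted p of 0.966. With the knockout treatment turned they would be -1.40 and -1.53, with adjusted p of 0.0967 and 0.118.

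Among genes that read lower, the 10 with the smallest unadjusted p follow, with clone and predicted gene names left out. Ss18l1, a calcium-responsive chromatin regulator described in neurons, read 98.5 and 79.7 without tBuHQ and 29.0 and 19.8 with it (log2 difference -1.38 ± 0.243, limma adjusted p = 0.232). In wild-type polysomes it read 37.1 and 49.4 without and 56.2 and 64 with tBuHQ, so the difference ran the other way there, by -1.75 ± 0.343 between genotypes (adjusted p = 0.404, and 1.02 with the knockout treatment turned). Rbms3, an RNA-binding protein, read 168 and 168 without and 75.5 and 67.2 with tBuHQ (-1.08 ± 0.243, adjusted p = 0.265). The untreated arrays agreed to 3 digits and lay above both tBuHQ arrays. Hand2, a transcription factor of hepatic stellate cells, read 139 and 204 without and 80.3 and 75.7 with it (-0.98 ± 0.237). Hand2 had the lowest difference of the 16 stellate cell markers tested, whose median was 0.25. Of those markers 8 read higher on both tBuHQ arrays (50%) and 2 lower (12.5%), against 20.4% and 17.5% of all genes. Ifitm1, an interferon-induced membrane protein, read 380 and 419 without and 176 and 121 with tBuHQ (-1.35 ± 0.382). Both genes also read lower with tBuHQ in wild-type polysomes, with differences of -1.38 and -1.45. Pth1r, the parathyroid hormone receptor, stood at 106 and 119 against 67.3 and 27.6, and Lama5, a laminin chain, at 81.1 and 85.5 against 46.4 and 33.9. Ccnf, a cyclin, stood at 99.7 and 106 against 18.7 and 40.0. Sh2b2, an adaptor of receptor tyrosine kinases, and Zmynd19 ended near or under the spike-in level: Sh2b2 read 39.9 and 49.3 without and 4.66 and 9.79 with tBuHQ, Zmynd19 78.6 and 67.0 without and 14.3 and 13.9 with it. Rgl1 stood at 53.4 and 101 against 36.7 and 20.4.

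As a group, the genes of secreted plasma proteins read higher with tBuHQ. Of 54 listed, 47 passed the filter, and both tBuHQ arrays lay above both untreated arrays for 33 of them and below for 0, with a median log2 difference of 0.47 against -0.01 over all genes. The share of 20.4% of all genes is the background for that count. An unadjusted p under 0.05 was reached by 20 members, all higher, and none passed the adjusted test. Besides the Itih genes, Itih4 read 2639 and 4290 without and 5696 and 6567 with tBuHQ (0.86 ± 0.226), and Cp, the copper ferroxidase ceruloplasmin, read 2226 and 4657 without and 5569 and 7388 with it (0.99 ± 0.318). For both genes the first untreated array was the lowest, and it is the array with the pancreatic transcripts. Alb, albumin, was among the members that overlapped: it read 16337 and 18235 without and 14085 and 17197 with tBuHQ (-0.15 ± 0.157). Without the first untreated array, 35 plasma protein genes had both tBuHQ arrays above the remaining untreated array and 3 had both below, against 3885 and 3814 of all genes. The plasma protein median stood at 0.25 without the second tBuHQ array and at 0.68 without the first.

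Cytochrome P450 genes, whose enzymes oxidise drugs, sterols and fatty acids at the ER membrane, also read higher as a group by the titles. Of 50 listed, 41 passed the filter, 26 read higher on both tBuHQ arrays (63.4%, against 20.4% of all genes) and 0 lower on both (against 17.5%), and the median log2 difference was 0.53. The median stood at 0.22 without the second tBuHQ array and at 0.84 without the first. Among the 41 genes, 18 reached an unadjusted p under 0.05 as higher, where 4.49% of all genes did. Cyp4f15, which oxidises lipid mediators, read 315 and 334 without tBuHQ and 605 and 854 with it (1.11 ± 0.245, limma adjusted p = 0.254). Cyp51, a demethylase of cholesterol synthesis, read 281 and 270 without and 481 and 566 with it (0.88 ± 0.244). Both genes had tBuHQ arrays well clear of the untreated arrays. Ephx1, the microsomal epoxide hydrolase counted among the NRF2 targets, read 1073 and 1158 without and 1622 and 2920 with tBuHQ (0.96 ± 0.248). The list of NRF2 targets, antioxidant genes that hydroquinones can induce, had a median of 0.05, with 12 of 33 members higher on both tBuHQ arrays (36.4%) and 2 lower (6.06%). Its median stood at -0.06 without the second tBuHQ array, and it was also below 0 with each array centred on its 75th percentile. Without the second tBuHQ array, the remaining one lay above both untreated arrays for 14 of the 33 members and below for 15. Over all 12154 genes these counts were 4095 and 4352.

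Bile acid synthesis and transport genes followed. Of 24 tested, 16 read higher on both tBuHQ arrays (66.7%, against 20.4% of all genes) and 0 lower, with a median of 0.52 (0.33 without the second tBuHQ array), and 11 reached an unadjusted p under 0.05. Slc27a5, which activates bile acids with coenzyme A, read 2448 and 3438 without and 4653 and 5973 with tBuHQ (0.86 ± 0.21). Slco1b2, the organic anion transporter of the sinusoidal membrane, read 3988 and 3672 without and 5822 and 6501 with it (0.68 ± 0.18). In both genes the groups were apart. Tfr2, a hepatocyte iron sensor, led the receptor list with 1016 and 1099 without and 2270 and 2227 with tBuHQ (1.08 ± 0.226, limma adjusted p = 0.233). Of 34 receptor genes tested, 17 read higher on both tBuHQ arrays (50%) and 3 lower (8.82%), against 20.4% and 17.5% of all genes. Their median was 0.29.

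**Figure D2:**
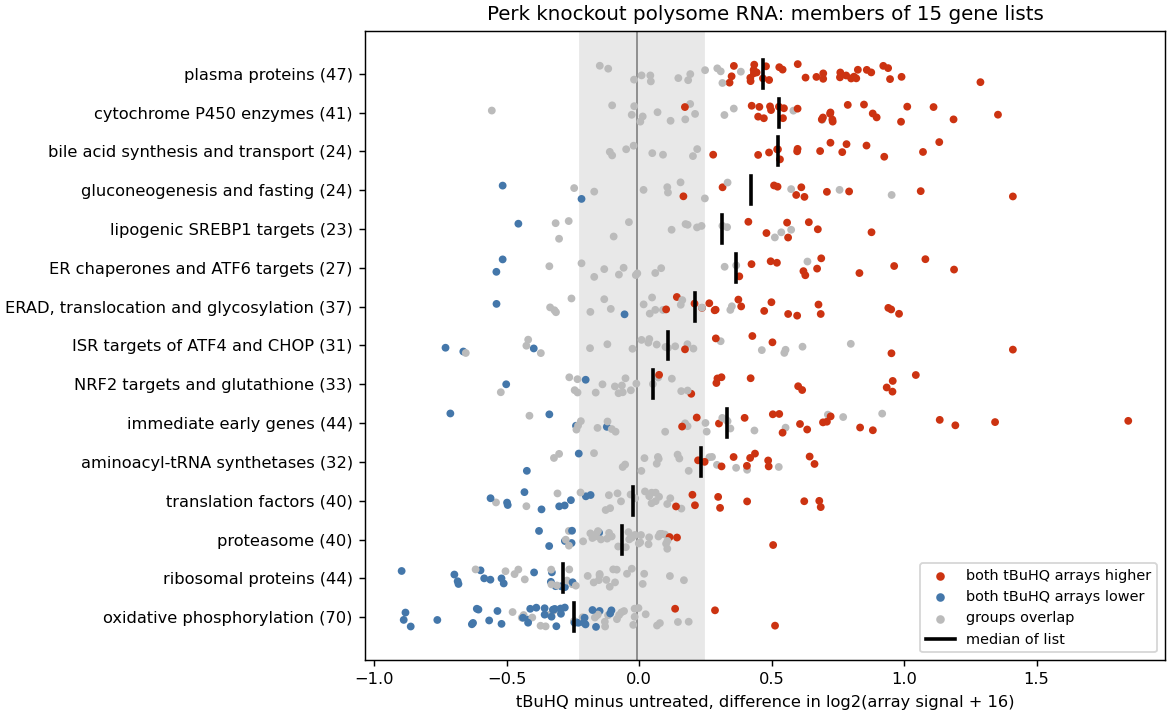
Each point is a gene of the knockout polysome comparison, placed by its tBuHQ minus untreated difference in log2(array signal + 16), in rows for selected gene lists with the number of genes tested in brackets. Red points have both tBuHQ arrays above both untreated arrays, blue points both below, and grey points overlap. Black bars are list medians, the grey line is the median of all genes and the grey band its middle quartiles. The plasma protein, P450 and bile acid rows hold no blue point, and the ribosomal protein row no red point.

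Genes of gluconeogenesis and fasting, the programme by which liver makes glucose, had 11 of 24 tested members higher on both tBuHQ arrays (45.8%, against 20.4% of all genes) and 2 lower (8.33%, against 17.5%), with a median of 0.42. Pcx, pyruvate carboxylase, the entry step of gluconeogenesis from pyruvate, read 709 and 977 without tBuHQ and 1819 and 1694 with it (1.06 ± 0.272, limma adjusted p = 0.395). Igfbp1, an insulin-repressed binding protein of insulin-like growth factors, read 1871 and 2400 without and 3606 and 3759 with it (0.79 ± 0.329). Both genes had no overlap between treatments. G6pc, the phosphatase of the final step of glucose release, read 2769 and 3353 without and 3813 and 5707 with tBuHQ (0.61 ± 0.288), and Pck1, which makes phosphoenolpyruvate, read 6488 and 7277 without and 7760 and 9417 with it (0.31 ± 0.184). Ppargc1a, their coactivator, overlapped: it read 131 and 253 without and 233 and 435 with tBuHQ. In wild-type polysomes the list median was 0.03, and G6pc differed between genotypes in its tBuHQ effect by 1.07 ± 0.407 (adjusted p = 0.966, and -0.16 with the knockout treatment turned).

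Lipogenic targets of SREBP1 had 7 of 23 tested members higher on both tBuHQ arrays (30.4%, against 20.4% of all genes) and 1 lower (4.35%), with a median of 0.31. Srebf1, which encodes that factor, read 1100 and 914 without tBuHQ and 1571 and 2190 with it (0.88 ± 0.344). Acly, which supplies acetyl-CoA for fat synthesis, read 2689 and 3117 without and 3941 and 5437 with it (0.67 ± 0.243). The second tBuHQ array was the highest for both genes. Without that array the list median stood at -0.07, so the direction of this list rests on 1 array. The remaining tBuHQ array lay above both untreated arrays for 7 of the 23 members and below for 8. Over all 12154 genes these counts were 4095 and 4352. In wild-type polysomes the list median was -0.31, with Srebf1 at 1960 and 1438 without and 1671 and 996 with tBuHQ. The difference between genotypes was 1.25 ± 0.487 for Srebf1 and 1.06 ± 0.344 for Acly, each with an adjusted p of 0.966. With the knockout treatment turned they would be -0.50 and -0.29. The cholesterol synthesis list had a median of 0.16. Of its 22 members, 9 read higher on both tBuHQ arrays (40.9%) and 3 lower (13.6%), against 20.4% and 17.5% of all genes.

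ER chaperones read higher in part. Of 27 tested, 12 were higher on both tBuHQ arrays (44.4%, against 20.4% of all genes) and 2 lower (7.41%, against 17.5%), with a median of 0.37 (0.16 without the second tBuHQ array and 0.56 without the first), and 7 reached an unadjusted p under 0.05, all higher. Hspa5, the main ER chaperone BiP, read 1957 and 2215 without tBuHQ and 3111 and 3341 with it (0.63 ± 0.25, limma adjusted p = 0.785). Hsp90b1, the ER chaperone GRP94, read 884 and 2486 without and 2871 and 3470 with it (1.08 ± 0.379). For Hsp90b1 the size of the difference rests on the first untreated array, since the second lay close to the tBuHQ arrays. Pdia3, which folds glycoproteins together with calreticulin, read 476 and 662 without and 1101 and 1537 with tBuHQ (1.19 ± 0.377). Calr, calreticulin, a calcium-binding chaperone, read 1574 and 1740 without and 2322 and 3013 with it (0.67 ± 0.26). The treatments did not overlap for Pdia3 or Calr.

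The promoters of Hsp90b1 and Hspa5 are shown because they hold the ER stress response element, the motif bound by ATF6 with NF-Y. The element was searched as CCAAT, 9 bases of any kind and CCACG, on both strands, and is in capitals. Hsp90b1 lies at chr10:86705395-86705694 on the minus strand and Hspa5 at chr2:34771840-34772139 on the plus strand (RefSeq, GRCm38.p6, 5′ to 3′).
Hsp90b1: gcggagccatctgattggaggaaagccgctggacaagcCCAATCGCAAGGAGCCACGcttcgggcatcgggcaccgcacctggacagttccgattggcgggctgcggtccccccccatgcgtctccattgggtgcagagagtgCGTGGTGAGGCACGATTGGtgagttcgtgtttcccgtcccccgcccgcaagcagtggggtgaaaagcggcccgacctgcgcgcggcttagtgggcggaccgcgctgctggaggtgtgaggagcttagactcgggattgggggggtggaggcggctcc
Hspa5: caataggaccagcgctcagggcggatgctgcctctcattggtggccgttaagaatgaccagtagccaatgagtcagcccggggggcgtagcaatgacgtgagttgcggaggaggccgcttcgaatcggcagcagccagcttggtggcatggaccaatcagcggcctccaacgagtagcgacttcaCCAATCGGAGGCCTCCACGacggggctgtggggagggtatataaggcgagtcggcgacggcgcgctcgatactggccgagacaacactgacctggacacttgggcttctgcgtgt
The matches start at -212 and -107 in Hsp90b1 and at -65 in Hspa5. Only this spelling was searched, so promoters with a variant of the element were not counted. Of 9839 promoters of tested genes 16 held it (0.163%). Of the 546 genes higher at an unadjusted p under 0.05, 433 had a promoter and 6 of those held it (1.39%). These were Hsp90b1, Calr, Hspa5, Pdia6, Canx and Dnajc3, all genes of ER folding. Of the 158 genes lower at that p, 130 had a promoter and 1 of those held it (0.769%), which was Alg12. Pdia6, a disulfide isomerase, read 637 and 560 without and 969 and 1194 with tBuHQ (0.83 ± 0.337). Canx, the membrane chaperone calnexin, read 647 and 593 without and 919 and 1102 with it (0.69 ± 0.289). Dnajc3, a cochaperone of BiP, read 832 and 1038 without and 1554 and 2144 with tBuHQ (0.96 ± 0.445). In these 3 genes both tBuHQ arrays lay above both untreated arrays. Of the other 10 genes with the element, Alg12, a mannosyltransferase of N-glycosylation, read 89.1 and 56.6 without and 32.3 and 36.5 with tBuHQ (-0.80 ± 0.26), and Creld2, a secreted ER stress marker, read 364 and 262 without and 228 and 196 with it (-0.52 ± 0.464). Derl3 and Syvn1, both of ER-associated degradation, each differed by 0.06 on the log2 scale. The genes with the element did not all read the same way.

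Genes of the ER export and degradation machinery had 18 of 37 tested members higher on both tBuHQ arrays (48.6%) and 2 lower (5.41%). Their median was 0.21, and the shares of all genes were 20.4% and 17.5%. Sec63, a translocon partner that recruits BiP, read 187 and 175 without tBuHQ and 346 and 379 with it (0.94 ± 0.229), and Rpn1, a subunit of oligosaccharyltransferase, read 348 and 403 without and 664 and 823 with it (0.95 ± 0.288). Both were apart between treatments. Herpud1, an ER stress-induced factor of ER-associated degradation, went the other way, at 4443 and 3387 without and 2282 and 3109 with tBuHQ (-0.54 ± 0.312). In wild-type polysomes Herpud1 read 1905 and 3016 without and 5664 and 3085 with it, and the difference between genotypes was -1.34 ± 0.441 (limma adjusted p = 0.966, and -0.26 with the knockout treatment turned). Xbp1, the transcription factor of the IRE1 arm, read 3256 and 2961 without and 4196 and 4145 with tBuHQ (0.42 ± 0.313). The array does not separate the spliced from the unspliced Xbp1 mRNA in this signal. Atp2a2, the ER calcium pump SERCA2 that tBuHQ inhibits, read 464 and 494 without and 920 and 835 with it (0.85 ± 0.295). Among calcium pumps and channels 10 of 19 tested genes read higher on both tBuHQ arrays (52.6%) and 2 lower (10.5%). Their median was 0.30.

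The ATF4 and CHOP targets, which lie downstream of PERK, showed no common direction. Of 31 tested, 6 read higher on both tBuHQ arrays and 3 lower, with a median of 0.11, and 2 reached an unadjusted p under 0.05 as higher and 1 as lower. As shares these are 19.4% higher and 9.68% lower, against 20.4% and 17.5% of all genes. In wild-type polysomes the list median was 0.08. There 8 of the 31 genes read higher on both tBuHQ arrays and 3 lower, against 21.3% and 11.6% of all genes. The lack of a common direction was thus not particular to the knockout. Atf4 itself read 1558 and 1586 without tBuHQ and 2211 and 1431 with it (0.18 ± 0.259), and the tBuHQ arrays lay on either side of the untreated ones. Ddit3, which encodes CHOP, read 120 and 87.0 without and 165 and 123 with it (0.43 ± 0.326, limma adjusted p = 0.913). Its groups were apart by a small margin. In unfractionated knockout RNA Ddit3 went the other way, at 248 and 321 without and 144 and 214 with tBuHQ (-0.64 ± 0.326). The difference between fractions was 1.06 ± 0.462 (limma adjusted p = 0.999). Asns, asparagine synthetase, read 180 and 203 without and 138 and 355 with tBuHQ (0.20 ± 0.468). Ppp1r15a, the GADD34 subunit that returns eIF2 to its unphosphorylated state, read 383 and 263 without and 765 and 255 with it (0.46 ± 0.486). Atf4, Asns and Ppp1r15a each changed sign when 1 of the tBuHQ arrays was left out. Trib3, a pseudokinase induced by CHOP, stood lower with tBuHQ at 76.5 and 117 against 69.9 and 41.1 (-0.66 ± 0.331). Slc3a2, the heavy chain of amino acid transporters, read 114 and 135 without and 233 and 279 with tBuHQ (0.95 ± 0.232), and Fgf21, a fasting and stress hormone, read 11.7 and 4.52 without and 55.5 and 40.3 with it. The untreated Fgf21 signals were under the highest absent spike-in, so no fold is given for it.

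**Figure D3:**
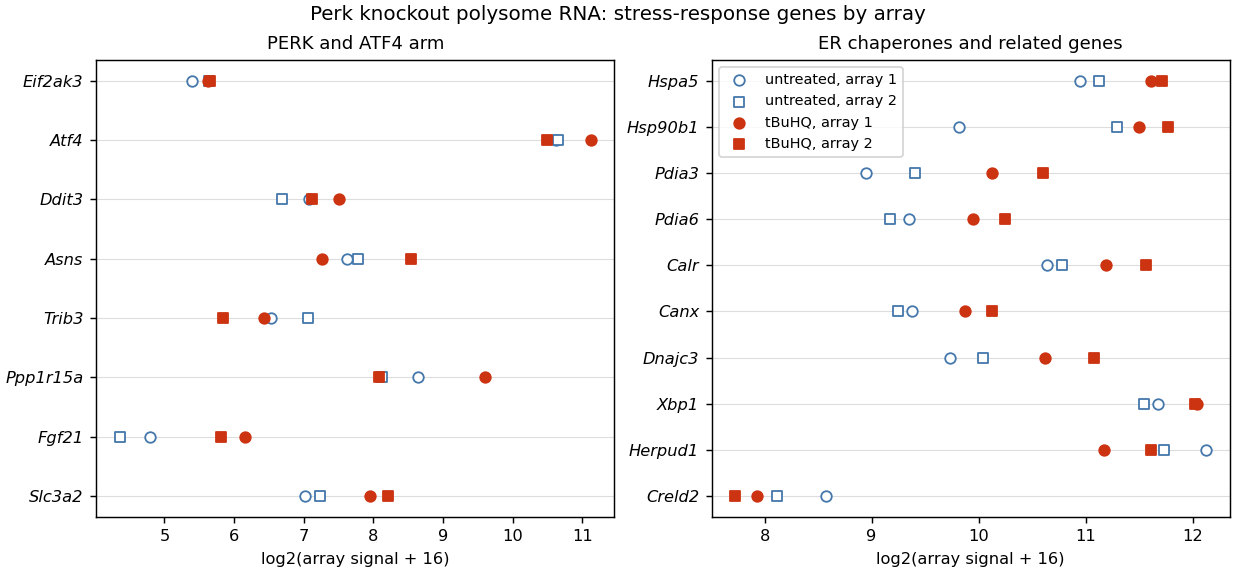
Signals on the 4 knockout polysome arrays, as log2(array signal + 16), for genes of the PERK and ATF4 arm (left) and for ER chaperones and related genes (right). Open blue symbols are untreated arrays, filled red symbols tBuHQ arrays, circles array 1 and squares array 2. Hspa5, Pdia3, Pdia6, Calr, Canx and Dnajc3 have both red symbols to the right of both blue ones, while Atf4, Asns and Ppp1r15a overlap and Herpud1 and Creld2 have both red symbols to the left.

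The list of mRNAs with upstream reading frames, which includes Ddit3, had a median of 0.14. Of its 14 tested members, 2 read higher on both tBuHQ arrays (14.3%) and 1 lower (7.14%), against 20.4% and 17.5% of all genes. The median turned to -0.24 without the first tBuHQ array. Gadd45g, a growth arrest gene of that list, read 449 and 323 without tBuHQ and 1230 and 800 with it (1.34 ± 0.544). Immediate early genes, the first to be transcribed after a stimulus, had 18 of 44 tested members higher on both tBuHQ arrays (40.9%) and 4 lower (9.09%), with a median of 0.33 that stood at 0.15 without the first tBuHQ array and at 0.53 without the second. Ccn1, a matricellular protein, read 209 and 191 without and 515 and 406 with it (1.13 ± 0.311). Fosb read 23.5 and 32.4 without and 292 and 64.1 with tBuHQ (1.85 ± 0.546), so that its mean rests on the first tBuHQ array. Aminoacyl-tRNA synthetases had 11 of 32 members higher on both tBuHQ arrays (34.4%, against 20.4% of all genes) and 2 lower (6.25%), with a median of 0.23 and of 0.086 without the first untreated array. Tars, which charges threonine, read 1513 and 1578 without and 2444 and 2465 with tBuHQ (0.66 ± 0.187, limma adjusted p = 0.496), against 3276 and 3242 without and 2951 and 3398 with it in wild-type polysomes. The untreated knockout arrays were the low ones among the 8 polysome arrays for Tars.

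Genes of the ribosome and of mitochondrial respiration lay on the lower side. Of 82 ribosomal protein genes listed, 44 were tested, and 16 of them read lower on both tBuHQ arrays and 0 higher, against backgrounds of 17.5% and 20.4%, and the median was -0.29. Rps24 read 4503 and 3158 without tBuHQ and 2531 and 2124 with it (-0.70 ± 0.291), and Rpl37a read 6449 and 5298 without and 4206 and 2329 with it (-0.90 ± 0.41). The second tBuHQ array was the lowest in both. Without the first untreated array, the one with pancreatic transcripts, the ribosomal protein median stood at -0.11, and without the second at -0.49. Of 70 tested genes of oxidative phosphorylation, 37 read lower on both tBuHQ arrays (52.9%) and 3 higher (4.29%), with a median of -0.25. Ndufa3, a small subunit of complex I, read 7944 and 6791 without and 5505 and 2951 with tBuHQ (-0.86 ± 0.447). Ndufs1, the largest subunit of that complex, read 1297 and 1172 without and 1816 and 1717 with it (0.51 ± 0.198). Of 43 tested genes named Nduf, most of them of complex I, 16 read lower on both tBuHQ arrays (37.2%) and 2 higher (4.65%). Proteasome genes had a median of -0.07, with 3 of 40 members higher on both tBuHQ arrays (7.5%) and 6 lower (15%). Translation factors had a median of -0.02, with 9 of 40 higher (22.5%) and 10 lower (25%). Eif3c, a subunit of initiation factor eIF3, stood at 1836 and 2174 against 2871 and 3590 (0.68 ± 0.224).

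Hepatocyte transcription factors gave no common direction, with a median of -0.02. Of 30 members, 4 read higher on both tBuHQ arrays (13.3%) and 5 lower (16.7%), against 20.4% and 17.5% of all genes. Foxa3, a forkhead factor of liver identity, read 1438 and 1149 without tBuHQ and 603 and 804 with it (-0.87 ± 0.293), and 541 and 718 without and 922 and 1376 with it in wild-type polysomes. The difference between genotypes was -1.71 ± 0.415 (limma adjusted p = 0.868, and 0.03 with the knockout treatment turned). The clock output Dbp, a PAR-domain factor that cycles strongly with time of day in liver, read 988 and 273 without and 152 and 162 with tBuHQ in knockout polysomes (-1.64 ± 0.764). In wild-type polysomes it read 74.3 and 64.4 without and 909 and 379 with it. The untreated knockout arrays differed from each other more than the second of them did from the tBuHQ arrays. The difference between genotypes was -4.47 ± 1.08 (adjusted p = 0.868, and -1.18 with the knockout treatment turned). Unfractionated RNA had the same directions by the titles. There Dbp read 1719 and 538 without and 61.1 and 325 with tBuHQ in the knockout, and 60.8 and 45.3 without and 1200 and 284 with it in the wild type. The sources used here give no hour of perfusion, and the part of time of day was not tested. The clock list as a whole had a median of -0.06. On both tBuHQ arrays 3 of its 18 members read higher (16.7%) and 3 lower (16.7%), against 20.4% and 17.5% of all genes.

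Set beside wild-type polysome RNA, the test of the difference between genotypes in the tBuHQ effect called no gene (limma, smallest adjusted p = 0.0671), with 614 genes at an unadjusted p under 0.05. Calls appeared when either wild-type tBuHQ array was left out, but such a fit holds only 1 wild-type tBuHQ array. Without the first, the one with pancreatic transcripts, the array that remains is the one with the high Gapdh ratio. The median of this difference over all genes was -0.036 without the first and -0.038 without the second, against -0.025 with both. In wild-type polysomes 2 genes passed the test of tBuHQ (0.0165% of those tested), Cyp2c37 and Nr1d2, both higher. In knockout polysomes Nr1d2, the clock repressor REV-ERB beta, read 1543 and 1550 without and 1111 and 1146 with tBuHQ, and Cyp2c37 read 24.3 and 25.3 without and 8.03 and 54.4 with it. Both tBuHQ arrays lay above both untreated arrays for 21.3% of genes in wild-type polysomes and below for 11.6%. The list medians of plasma proteins, P450 and bile acid genes in wild-type polysomes were 0.43, 0.42 and 0.47, beside knockout values of 0.47, 0.53 and 0.52 by the titles and of -0.47, -0.53 and -0.52 with the treatment turned. Those of ribosomal proteins and oxidative phosphorylation were -0.24 and -0.23. The lists whose medians had opposite signs in the 2 genotypes included the lipogenic targets and the proteasome genes, the latter at 0.19 in wild-type and -0.07 in knockout polysomes. Without the first knockout tBuHQ array the knockout proteasome median stood at 0.12, so the opposite sign rests on 1 array. With the knockout treatment turned, the test of the difference between genotypes called 1 gene higher and 2 lower (0.0247% of those tested). Across all 12154 genes the tBuHQ differences of the 2 genotypes correlated at 0.155, or -0.155 turned, with no array in common.

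Set beside unfractionated RNA of knockout liver, the test of the difference between fractions in the tBuHQ effect called no gene (limma, smallest adjusted p = 0.999), and 360 genes had an unadjusted p under 0.05. In unfractionated RNA both tBuHQ arrays lay above both untreated arrays for 21.1% of genes and below for 20.6%. The medians there were 0.50 for plasma proteins, 0.43 for P450 genes, 0.41 for gluconeogenesis, 0.40 for ER chaperones and -0.23 for oxidative phosphorylation. By the titles each had the sign seen in polysome RNA, and with the knockout polysome treatment alone turned each had the opposite sign. With the treatment turned in both knockout fractions, the signs would again be alike and the correlation across genes would stay at 0.385. The likeness of the fractions therefore does not decide which labels are right. The first untreated array carried pancreatic transcripts in both fractions, with sums of 3707 and 232 on the unfractionated untreated arrays and 125 and 171 with tBuHQ, and the part of those transcripts in this likeness was not tested. The aminoacyl-tRNA synthetases had a median of -0.17 in unfractionated and 0.23 in polysome RNA, the latter at 0.086 without the first untreated array. Across genes the differences of the 2 fractions correlated at 0.385, or -0.385 turned. The fractions share no array, but the same livers may have given both. With the knockout polysome treatment turned, the test of the difference between fractions called 0 genes higher and 14 lower (0.115%).

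**Figure D4:**
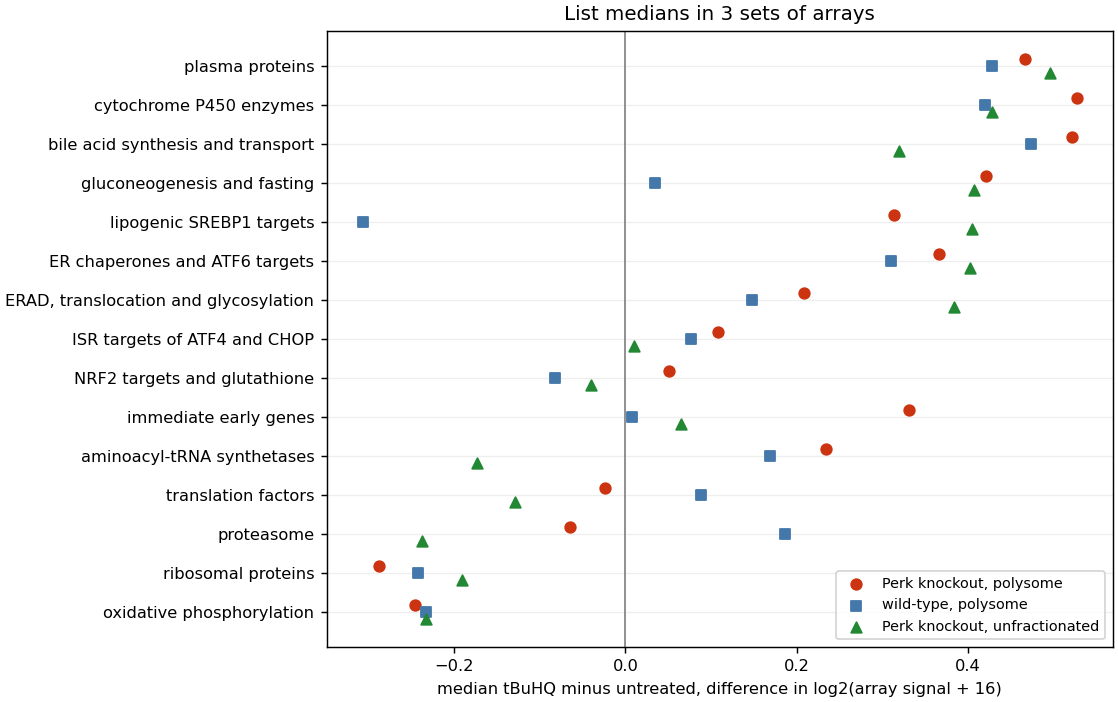
Median tBuHQ minus untreated difference in log2(array signal + 16) of each gene list in knockout polysome RNA (red circles), wild-type polysome RNA (blue squares) and knockout unfractionated RNA (green triangles), with a grey line at 0. With treatments as titled, the 3 symbols lie on the same side of 0 for plasma proteins, P450 enzymes, bile acid genes, ER chaperones, ribosomal proteins and oxidative phosphorylation. The lipogenic list is at -0.31 in wild-type polysomes and at 0.31 and 0.40 in the knockout sets. With the knockout polysome treatment turned, the red circles would be mirrored about 0.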

How the data were processed

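Signal intensities of 16 Affymetrix arrays (45101 probe sets) were taken as deposited by the authors in the series value table. They are on a linear scale, and the step from scan to signal is not stated. A second deposited table of the authors holds z scores and a z ratio, used only for the check of treatment labels.

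Samples were grouped by their titles. Probe sets were named through the platform annotation: 34958 had 1 symbol, 932 several and 9211 none, and only the first kind was used, with symbols updated through RefSeq. Signals were taken as log2(signal + 16), without further normalization. Each gene was read by its probe set with the highest mean, and genes with a mean at or under 16.5, the 40th percentile of named probe sets, were left out. The low-signal filter uses all 16 arrays, so a gene bright in only some groups can pass. All 8 group means were fitted in limma 3.58.1 (R 4.3.3) with an intensity trend (8 residual and 6.94 prior degrees of freedom), and the contrasts adjusted by Benjamini-Hochberg over 12154 genes. The number of arrays limits the precision. The fit was tested on simulated data.

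The comparison, its members and the gene lists were chosen with earlier results of these data known, and the motifs and the promoters shown after values were seen. Named genes are the 10 with the smallest unadjusted p in each direction without overlap between treatments, a fixed set of stress and metabolic genes, and the 2 with the smallest unadjusted p of each of 41 lists. Clone, predicted and model gene names, such as those ending in Rik, were left out when the 10 were taken. Genes with the ER stress response element, Nr1d2 and Cyp2c37 were added for their motif or wild-type call. Deviations from the group means correlated at -0.0155 between untreated and tBuHQ knockout polysome arrays of the same number, so the numbers were not taken to pair the treatments. Between polysome and unfractionated knockout arrays of the same number they correlated at 0.328 untreated and 0.0821 with tBuHQ. Alternatives covered normalization, pseudocount, filter, probe choice, arrays fitted, weights, blocks, each array left out and, added after seeing the data, the knockout polysome treatment turned.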

Additional observations from a re-analysis of the deposited data

How the results depend on the processing

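The tBuHQ effect in knockout polysome RNA called 0 genes higher and 0 lower in each of 19 alternatives and with the knockout polysome treatment turned as in the z score column names, an alternative added after seeing the data, with 415 to 1126 genes at an unadjusted p under 0.05, the lowest without the second tBuHQ array. The replicate block within genotype and fraction also gave 0 calls, with 554 genes at an unadjusted p under 0.05. The difference between fractions called 0 genes in all alternatives run except the turned treatment, which called 14 lower. In the difference between genotypes the turned treatment called 1 higher and 2 lower. The difference between genotypes called 0 genes higher and 0 lower, but 147 higher and 14 lower without the first wild-type tBuHQ array, which carries the pancreatic transcripts, so over the arrays left out the counts ranged from 0 to 147 and from 0 to 14. It called 1 lower without the second wild-type tBuHQ array, the one with the high Gapdh 3'/5' ratio, 1 lower without the second knockout tBuHQ array, and 2 lower with a crossed replicate block in wild-type polysome RNA, an alternative chosen after seeing the data. The cause was not tested. Centring each array on its 75th percentile moved the median of all genes in that contrast to -0.106. Eif2ak3 in knockout against wild-type polysomes stood at -1.57 (adjusted p = 0.0192) without the second wild-type tBuHQ array and at -1.60 to -1.11 over the arrays left out, passing the threshold also without the first (adjusted p = 0.0285). With treatments as titled, of 1930 combinations of a named gene and an alternative, 1923 kept their direction and none passed the test. The 7 that turned all left out 1 array: Sox9 (-0.10 to 0.61), Ighm (-0.64 to 5.12) and Eif2ak3 (-0.00027 to 0.24) turned without the first untreated array, Hbb-b2 (-0.78 to 0.077) and Asns (-0.43 to 0.84) without the second tBuHQ array, and Atf4 (-0.13 to 0.49) and Ppp1r15a (-0.30 to 1.23) without the first, each range being over the arrays left out. Of 41 list medians 20 kept their sign in every such alternative, among them plasma proteins (0.25 to 0.68), P450 genes (0.22 to 0.84), bile acid genes (0.33 to 0.70), ER chaperones (0.16 to 0.56), gluconeogenesis (0.29 to 0.49), ribosomal proteins (-0.49 to -0.11) and oxidative phosphorylation (-0.34 to -0.18). The ATF4 and CHOP targets ranged from -0.02 to 0.16 and the lipogenic targets from -0.07 to 0.54.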

Other observations

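Gene families taken by the start of their symbols, chosen after the values were seen, are given as counts. All 5 Itih genes read higher on both tBuHQ arrays of knockout polysome RNA, with a median log2 difference of 0.94. Ces genes, the carboxylesterases that cleave drug and lipid esters, had 8 of 12 members higher on both and 0 lower, with a median of 0.74. Ugt genes, which conjugate drugs and bilirubin with glucuronic acid, had 8 of 10 higher and 0 lower, with a median of 0.65. Of 20 Gst genes, which conjugate glutathione, 0 read higher on both tBuHQ arrays and 4 lower, with a median of -0.08, where 20.4% and 17.5% of all genes did. Abc transporters had 18 of 34 higher and 2 lower, with a median of 0.34. Zfp genes, a large family with no common liver role, had 50 of 266 higher and 48 lower, with a median of 0.00, close to the shares of all genes. Genes of the mitochondrial ribosome, named Mrpl and Mrps, had 29 of 76 lower and 1 higher, with a median of -0.25. No member of these families passed the adjusted test in knockout polysome RNA.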
